A study of Mus musculus with 8 samples.

Results

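The transcripts of 34 genes of the citric acid cycle and of mitochondrial fatty acid oxidation were followed in neutrophils recruited into dorsal air pouches by lipopolysaccharide (LPS). The genes were taken by name: 4 of pyruvate entry, 18 of the cycle and 12 of beta oxidation, each read by its brightest probe set with a single platform gene symbol. All 34 were found among 22180 genes with such a probe set, and 33 of them were among the 13296 genes bright enough to be tested. Pcx was not, since it stayed below the median of all values (5.45, log2) on every array. Levels are log2 intensities, so a difference of 1 is a doubling.

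Each array held RNA of the neutrophils of 5 pooled mice, isolated by negative selection, 98% of them positive for Ly6G per the labels. The Arf6 cKO pools (flox+/+Cre+/+, n = 3) carry the floxed Arf6 allele and Cre, the Cre control pools (flox-/-Cre+/+, n = 2) carry Cre without the floxed allele, and the flox control pools (flox+/+Cre-/-, n = 3) carry the floxed allele without Cre. All groups received LPS, so no resting neutrophils were measured. Neither the promoter driving Cre nor the age of the mice was stated in the labels. The study describes 3 independent groups of 5 mice per genotype, and 1 Cre control pool of these was not analysed here. The p-values measure the spread between these pools alone. With so few arrays the precision of every value is limited.

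Pyruvate enters mitochondria and is turned into acetyl-CoA by the pyruvate dehydrogenase complex, or into oxaloacetate by pyruvate carboxylase. The cycle oxidises acetyl-CoA and hands electrons to the respiratory chain, and beta oxidation shortens fatty acids to acetyl-CoA after the carnitine palmitoyltransferases have carried them across the mitochondrial membranes. Neutrophils hold few mitochondria and rely mostly on glycolysis, and in LPS-stimulated myeloid cells part of the cycle is diverted to itaconate, an inhibitor of succinate dehydrogenase. ARF6 is a small GTPase of membrane traffic, and the series asks how it bears on the metabolism of these cells.

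Arf6, the deleted gene, checks the cKO labels. The brighter of its 2 probe sets read 6.49, 6.06 and 6.20 in the cKO, 7.79 and 7.86 in the Cre control and 8.19, 8.20 and 7.68 in the flox control, with no overlap between the cKO and the controls. The values of the other are not given. The controls overlapped each other, so Arf6 does not check which control is which. Any 2 arrays correlated at 0.978 to 0.993 over probe sets with a single symbol. Sex-linked transcripts set 2 pools apart, cKO replicate 1 with Eif2s3y at 4.08 and flox control replicate 1 with Xist at 5.46. All 10 neutrophil markers were above the filter, but so were all 9 macrophage and monocyte markers and 6 of 8 T and NK cell markers. Of 8 eosinophil, mast cell and basophil markers Siglecf, Ccr3, Prg2 and Tpsb2 were above it and Epx, Cpa3, Mcpt4 and Fcer1a below.

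No tested gene of these pathways passed the threshold in cKO pools. With both controls as the baseline 0 of 33 tested genes passed (limma, adjusted p under 0.05, smallest adjusted p = 0.458), and 0.00714% of all 14002 probe sets did. At an unadjusted p under 0.05 limma gave 1 member, Acadvl, against 9.52% of all probe sets. The members nevertheless leaned to the higher side in the cKO, with 26 of 33 above 0 (27 of all 34 when Pcx was read without the filter), where 53.4% of all probe sets were above 0. Their median log2 fold change was 0.11, beside 0.01 for all probe sets, and it was 0.07 without flox control replicate 3 (25 of 33 above 0). Among the brighter probe sets, those over the 75th percentile of all values on at least 2 arrays, it was 0.09 for 22 members, beside 0.04 for all 7274. The 95% interval of the difference lay within 0.5 log2 units of 0 in 23 of 33 members. Dlst, Sucla2, Sdha, Mdh1, Cpt1a, Cpt2, Acadm, Acadl, Acadvl and Hadhb had intervals that reached farther, the widest bounds being -0.78 and 0.63. These are bulk samples, in which fewer cells of a type and less RNA per cell cannot be told apart.

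The lean differed in size with the control. Against the flox control 0 of 33 members passed, where 0.0429% of all probe sets did, and 21 of 33 were above 0, where 52.4% of all probe sets were. The median was 0.05, and it was 0.01 without cKO replicate 1 and also without flox control replicate 3 (19 of 33 above 0 in each case). It was 0.09 without cKO replicate 3 and also without flox control replicate 2, and 0.00 with array weights, where 17 of 33 were above 0. Against the Cre control 0 of 33 passed, where 0.0714% of all probe sets did, but 28 of 33 were above 0, where 52% of all probe sets were. The median was 0.17, beside 0.01 for all 14002 probe sets and 0.06 for the 7274 that pass a filter at the 75th percentile of all values. It was 0.11 without Cre control replicate 1 (27 of 33 above 0). These comparisons share the cKO arrays.

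The 2 control groups were also set against each other. The same control arrays serve in the comparisons with the cKO, so this is not a separate observation. In Cre control relative to flox control pools 0 of 33 members passed, where 0.486% of all probe sets did, and 8 of 33 were above 0, where 49.2% of all probe sets were. The median was -0.13, and it was -0.08 without flox control replicate 1. With the filter at the 75th percentile it was -0.19 for the 22 members left, beside -0.05 for the 7274 probe sets. Of the 33 members 23 had their lowest group mean in the Cre control, 7 in the flox control and 3 in the cKO, and 19 had their highest group mean in the cKO. By single arrays, 16 members were lowest on a Cre control array and 10 on flox control replicate 3. These orders were not counted over all probe sets, so they have no background. The Cre control mean rests on 2 arrays and each of the other means on 3, which makes an extreme mean more likely there.

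Averaged over the 33 members, the arrays read 7.42, 7.40 and 7.34 in the cKO, 7.22 and 7.27 in the Cre control and 7.45, 7.41 and 7.21 in the flox control. The Cre control pools were both below all 3 cKO pools, and flox control replicate 3 was below every other array. The flox control covered the whole span of the other groups.

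**Figure D1:**
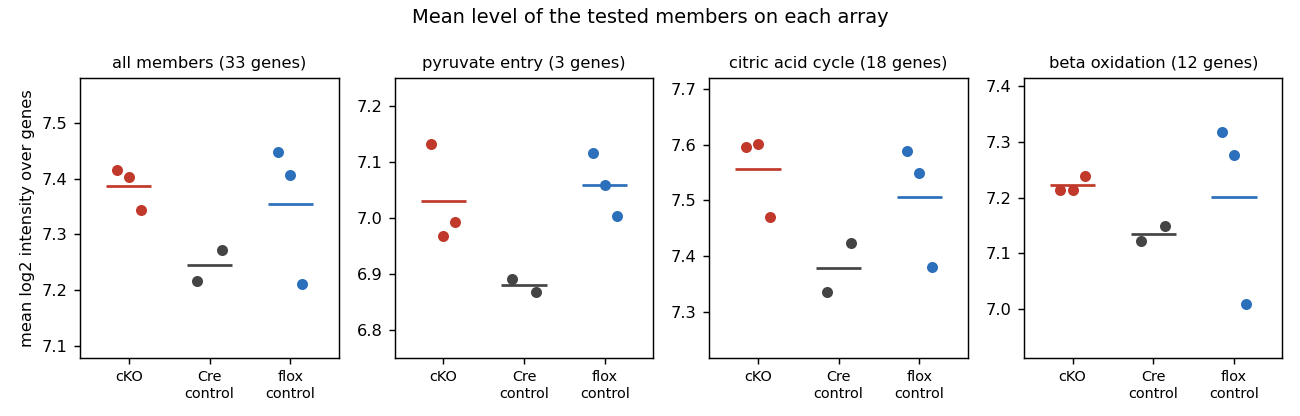
Mean log2 intensity of the tested members on each array (points) for all 33 genes and for each role, with the group mean as a bar; every panel spans 0.5 log2 units. Both Cre control arrays lie below all 3 cKO arrays in each panel. The flox control arrays spread from 7.21 to 7.45 for all members. At pyruvate entry they lie between 7.00 and 7.12, above both Cre control arrays.

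Levels of cell type markers were set beside these values, first for the cKO against the Cre control. Of 9 macrophage and monocyte markers 7 were lower in the cKO (median -0.24), with a mean list level of 8.34 to 8.55 in the cKO, 8.65 to 8.67 in the Cre control and 8.19 to 8.59 in the flox control. Of 6 T and NK cell markers 4 were lower (median -0.22), with a mean list level of 6.36 to 6.39 in the cKO, 6.40 to 6.74 in the Cre control and 5.92 to 6.18 in the flox control. Cd4 and Klrb1c of that list were below the filter. Of 10 neutrophil markers 9 were higher in the cKO (median 0.15), with a mean list level of 11.58 to 11.81 in the cKO, 11.47 on both Cre control arrays and 11.69 to 11.93 in the flox control. Of 7 fibroblast and endothelial markers 6 were higher in the cKO (median 0.26), with a mean list level of 6.55 to 7.55 in the cKO, 6.64 to 7.47 in the Cre control and 6.77 to 7.46 in the flox control. Against the flox control, the mean level of 6 dendritic cell markers was 7.82 to 8.09 in the cKO and 7.54 to 7.81 in the flox control. There 5 of 6 T and NK cell markers (median 0.34) and 5 of 9 macrophage and monocyte markers (median 0.06) were higher in the cKO. Of the neutrophil markers 7 of 10 were lower (median -0.06), so the direction of these 3 lists turned with the control. The tested eosinophil, mast cell and basophil markers had a median of 0.50 against the flox control, with 3 of 4 higher in the cKO. In Cre control relative to flox control pools, where most members were lower, 9 of 10 neutrophil markers were lower (median -0.24). In 8 of them the Cre control arrays lay all below, as in 17.4% of all probe sets. In the same comparison 5 of 6 T and NK cell markers (median 0.76) and 7 of 9 macrophage and monocyte markers (median 0.20) were higher. Of all probe sets 49.2% were above 0. None of these markers passed the threshold in any of these comparisons, and their part in the levels of the members was not tested.

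At pyruvate entry, none of the 3 tested subunits of the pyruvate dehydrogenase complex passed the threshold. Dlat, the acetyltransferase core of the complex, read 6.35, 6.17 and 6.20 in the cKO, 6.05 and 6.03 in the Cre control and 6.09, 6.30 and 6.32 in the flox control. Its cKO arrays were above both Cre control arrays and overlapped the flox control. The log2 fold change was 0.20 (SE 0.13, adjusted p = 0.547) against the Cre control and 0.00 (SE 0.12) against the flox control.

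Pdhb, the beta subunit of the decarboxylase, was the steadiest of the 3 tested genes, with 7.83, 7.73 and 7.73 in the cKO, 7.63 and 7.73 in the Cre control and 7.80, 7.83 and 7.55 in the flox control. Its groups overlapped in every comparison, and against both controls it was at 0.06 (log2, SE 0.11, with a 95% interval of -0.18 to 0.29). Pdha1, the X-linked alpha subunit, was at 0.03 (SE 0.12) against both controls. It was at 0.18 (SE 0.15) against the Cre control and -0.12 (SE 0.14) against the flox control. In Cre control relative to flox control pools it was at -0.30 (SE 0.15). Pcx, pyruvate carboxylase, lay between 4.74 and 4.79 in the cKO, 4.72 and 4.82 in the Cre control and 4.47 and 4.88 in the flox control, below the filter throughout, and was not tested.

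In the cycle, 14 of 18 genes were above 0 in the cKO against both controls (median 0.12), 16 of 18 against the Cre control (median 0.17) and 12 of 18 against the flox control (median 0.07). Citrate synthase, Cs, which starts the cycle, had a log2 fold change of 0.17 (SE 0.11) against both controls. Aco1 encodes the cytosolic aconitase, which doubles as an iron-responsive RNA-binding protein, and was at -0.05 (SE 0.13). The NAD-dependent isocitrate dehydrogenase subunits Idh3a, Idh3b and Idh3g were at 0.11, 0.20 and 0.14 (SE 0.10 to 0.12). Aco1 and Idh3a were close to the filter, above it on 4 and 6 of the 8 arrays. Against the Cre control alone Cs was at 0.29 (SE 0.13), and against the flox control at 0.05 (SE 0.12).

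Members of the oxoglutarate dehydrogenase complex, which makes succinyl-CoA, had estimates of both signs against both controls, with Dld at -0.10 (SE 0.11). Against the Cre control alone all of them were higher in the cKO, and differences between these genes were not tested. The decarboxylase Ogdh of this complex was at 0.15 (SE 0.11) against both controls. Dlst, its succinyltransferase core, read 8.33, 8.70 and 8.36 in the cKO, 7.89 and 8.13 in the Cre control and 8.44, 8.41 and 8.41 in the flox control. The Cre control pools were below all 6 other pools, while cKO replicate 2 alone stood above the flox control. The log2 fold change of Dlst was 0.45 against the Cre control (SE 0.15, unadjusted p = 0.0129, adjusted p = 0.249), 0.04 (SE 0.13) against the flox control, and -0.41 (SE 0.15, adjusted p = 0.241) in Cre control relative to flox control pools.

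Dld, the dihydrolipoamide dehydrogenase that this complex shares with the pyruvate dehydrogenase complex, had another pattern. It read 8.53, 8.84 and 8.75 in the cKO, 8.64 and 8.53 in the Cre control and 8.95, 9.12 and 9.03 in the flox control. Both groups that carry Cre were below all 3 flox control pools. Its log2 fold change was -0.33 against the flox control (SE 0.12, unadjusted p = 0.0223, adjusted p = 0.531), 0.12 (SE 0.14) against the Cre control, and -0.45 (SE 0.14, unadjusted p = 0.00775, adjusted p = 0.163) in Cre control relative to flox control pools. Dld was the single member at an unadjusted p under 0.05 against the flox control, where 8.26% of all probe sets were. It was also the single member whose arrays lay all below the flox control, as did 6.31% of all probe sets.

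The beta subunits of succinyl-CoA ligase were the members whose 3 cKO arrays lay above all 5 controls, 2 of 33 where 2.11% of all probe sets did so, and 0 of 33 lay below, where 2.25% did. Sucla2, the ATP-forming subunit, read 6.49, 6.42 and 6.31 in the cKO, 5.90 and 6.27 in the Cre control and 6.29, 6.27 and 6.01 in the flox control. The lowest cKO array stood just above the highest control, a gap smaller than the spread within any group. Its log2 fold change against both controls was 0.27 (SE 0.12, 95% interval -0.01 to 0.54, adjusted p = 0.538).

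Suclg2, the GTP-forming subunit, read 6.05, 5.95 and 5.97 in the cKO, 5.81 and 5.74 in the Cre control and 5.91, 5.87 and 5.66 in the flox control. Here too the groups did not overlap but came close, and the log2 fold change was 0.19 (SE 0.10, adjusted p = 0.599). A further Suclg2 probe set was dimmer, averaging 3.50 in the cKO, 3.59 in the Cre control and 3.49 in the flox control, and stayed below the filter. The shared alpha subunit Suclg1 was at 0.10 (SE 0.12) and close to the filter, above it on 6 of the 8 arrays.

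Succinate dehydrogenase, the cycle enzyme that is also complex II of the respiratory chain, had estimates of both signs over its subunits against both controls. Those of Sdhb and Sdhc were smaller in size than their SE, and differences between the subunits were not tested. Sdha, the flavoprotein subunit, read 8.72, 8.91 and 8.59 in the cKO, 8.32 and 8.496 in the Cre control and 8.66, 8.68 and 8.42 in the flox control. Its cKO pools were all above the Cre control and overlapped the flox control. The log2 fold change was 0.33 against the Cre control (SE 0.15, unadjusted p = 0.0459, adjusted p = 0.358) and 0.15 (SE 0.13) against the flox control.

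Sdhd, a membrane anchor, read 8.36, 8.84 and 8.48 in the cKO, 8.08 and 8.40 in the Cre control and 8.79, 8.64 and 8.53 in the flox control. The Cre control was below all 3 flox control pools, with a log2 fold change of -0.41 (SE 0.17, unadjusted p = 0.0401, adjusted p = 0.312), and the cKO overlapped both controls. The iron-sulphur subunit Sdhb and the other anchor Sdhc were at -0.03 (SE 0.11) and -0.01 (SE 0.17) in the cKO against both controls. Of the last steps, fumarase Fh1 was at 0.04 (SE 0.18), the mitochondrial malate dehydrogenase Mdh2 at 0.07 (SE 0.14) and the cytosolic Mdh1 at 0.19 (SE 0.14).

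**Figure D2:**
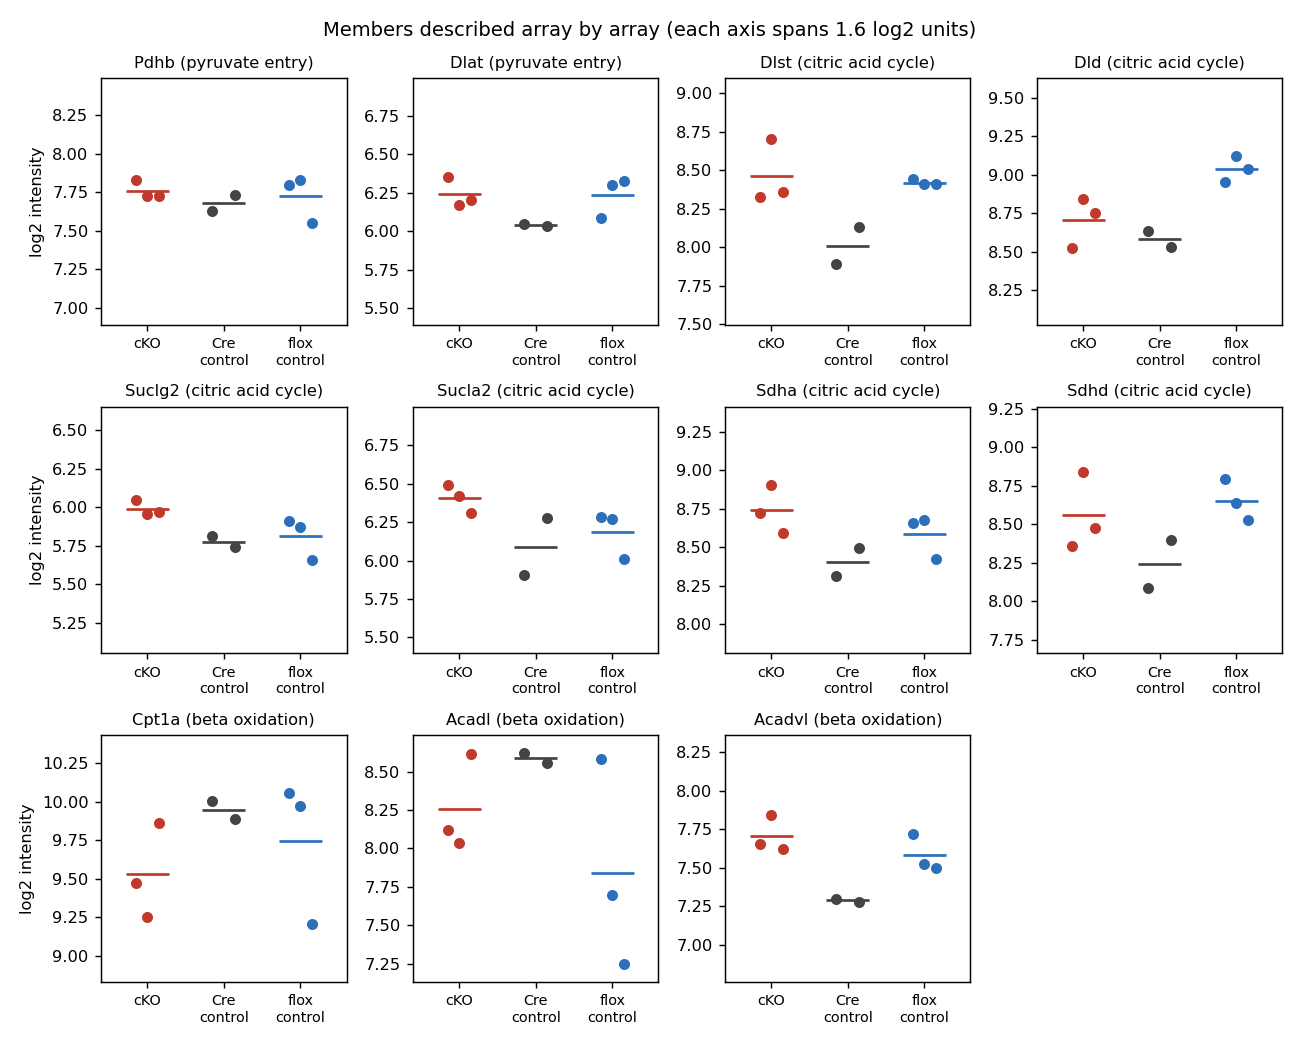
Log2 intensity of 11 genes on each array (points) with the group mean as a bar; each axis spans 1.6 log2 units around the gene's own values. Dlst and Acadvl are lower in the Cre control than in all other pools, Dld is higher in the flox control than in all other pools, and Acadl spreads from 7.25 to 8.58 within the flox control.

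The beta oxidation genes had a median of 0.08 against both controls, with 9 of 12 above 0. Against the Cre control it was 0.14 and against the flox control 0.04. Cpt1a, which makes the acyl-carnitines that enter mitochondria and is the controlled step of the pathway, was 1 of the 3 below 0, with Acaa2 and Hadhb. It read 9.48, 9.25 and 9.86 in the cKO, 10.004 and 9.89 in the Cre control and 10.06, 9.97 and 9.21 in the flox control. Its cKO arrays were all below the Cre control, but flox control replicate 3 was the lowest array of all. Cpt1a had the lowest log2 fold change of the members against both controls, -0.31 (SE 0.21, 95% interval -0.78 to 0.15, adjusted p = 0.695). The inner membrane enzyme Cpt2, which releases the acyl groups again, was at 0.16 (SE 0.18).

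The acyl-CoA dehydrogenases take the first oxidation step on chains of different lengths, and none of the 3 passed. Acadvl, for very long chains, read 7.66, 7.85 and 7.62 in the cKO, 7.30 and 7.28 in the Cre control and 7.72, 7.53 and 7.50 in the flox control. The Cre control was below all other pools, while the cKO and the flox control overlapped. Its log2 fold change was 0.42 against the Cre control (SE 0.13, unadjusted p = 0.00976, adjusted p = 0.234), 0.12 (SE 0.12) against the flox control and 0.27 (SE 0.11, unadjusted p = 0.0281, adjusted p = 0.458) against both.

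Acadl, for long chains, was the member that varied most over the arrays, by 1.37 log2 units where the median tested probe set varied by 0.57. It read 8.12, 8.04 and 8.61 in the cKO, 8.62 and 8.55 in the Cre control and 8.58, 7.70 and 7.25 in the flox control. Within the flox control alone the pools covered nearly this whole range, and the difference of 0.74 (SE 0.33, unadjusted p = 0.0481, adjusted p = 0.333) in Cre control relative to flox control pools was smaller than that spread. Acadm, for medium chains, was at 0.16 (SE 0.16) in the cKO against both controls.

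Hadha and Hadhb encode the alpha and beta subunits of the trifunctional protein, which carries out the later steps on long chains, and their genes lie head to head on chromosome 5. Per the RefSeq annotation of GRCm38.p6, Hadha starts at position 30154980 on the minus strand and Hadhb at 30155253 on the plus strand, with 272 bases between them. The 250 bases before the Hadhb start are printed since they lie between these starts, 5′ to 3′ for Hadhb, with the GC box GGGCGG (searched on both strands) in capitals.
Hadhb, chr5:30155003-30155252, plus strand: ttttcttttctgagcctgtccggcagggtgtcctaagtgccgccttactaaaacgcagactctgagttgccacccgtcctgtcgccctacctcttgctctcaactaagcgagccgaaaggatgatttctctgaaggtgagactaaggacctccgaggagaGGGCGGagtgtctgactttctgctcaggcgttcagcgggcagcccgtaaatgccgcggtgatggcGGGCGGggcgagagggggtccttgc
The stretch holds 2 GC boxes, and 32.7% of all 32851 RefSeq windows of the same length hold at least 1. Hadha read 9.15, 9.18 and 9.07 in the cKO, 8.90 and 9.02 in the Cre control and 9.29, 9.20 and 9.09 in the flox control. Hadhb read 4.97, 5.48 and 5.52 in the cKO, 5.15 and 5.13 in the Cre control and 5.15, 5.49 and 6.14 in the flox control, close to the filter. Both genes had their lowest group mean in the Cre control, and flox control replicate 3 was the highest array of Hadhb. On the log2 scale Hadha and Hadhb were at 0.17 and 0.18 in the cKO against the Cre control, at -0.06 and -0.27 against the flox control, and at 0.06 (SE 0.10) and -0.04 (SE 0.22) against both. None of these passed, and the difference between the genes was not tested. The levels of 2 probe sets cannot be set against each other, so nothing is said of which transcript was more abundant.

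The remaining steps had differences that did not pass. The hydratase Echs1 was at 0.11 (SE 0.15) against both controls and the thiolase Acaa2 at -0.11 (SE 0.17). The electron transfer flavoprotein subunits Etfa and Etfb, which take electrons from the dehydrogenases, were at 0.11 (SE 0.17) and 0.05 (SE 0.11), and Etfdh, which passes them to ubiquinone, was at 0.16 (SE 0.12). The controls differed for Echs1, which was at 0.29 (SE 0.18) against the Cre control and -0.08 (SE 0.16) against the flox control. In Cre control relative to flox control pools Echs1 was at -0.37 (SE 0.18).

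**Figure D3:**
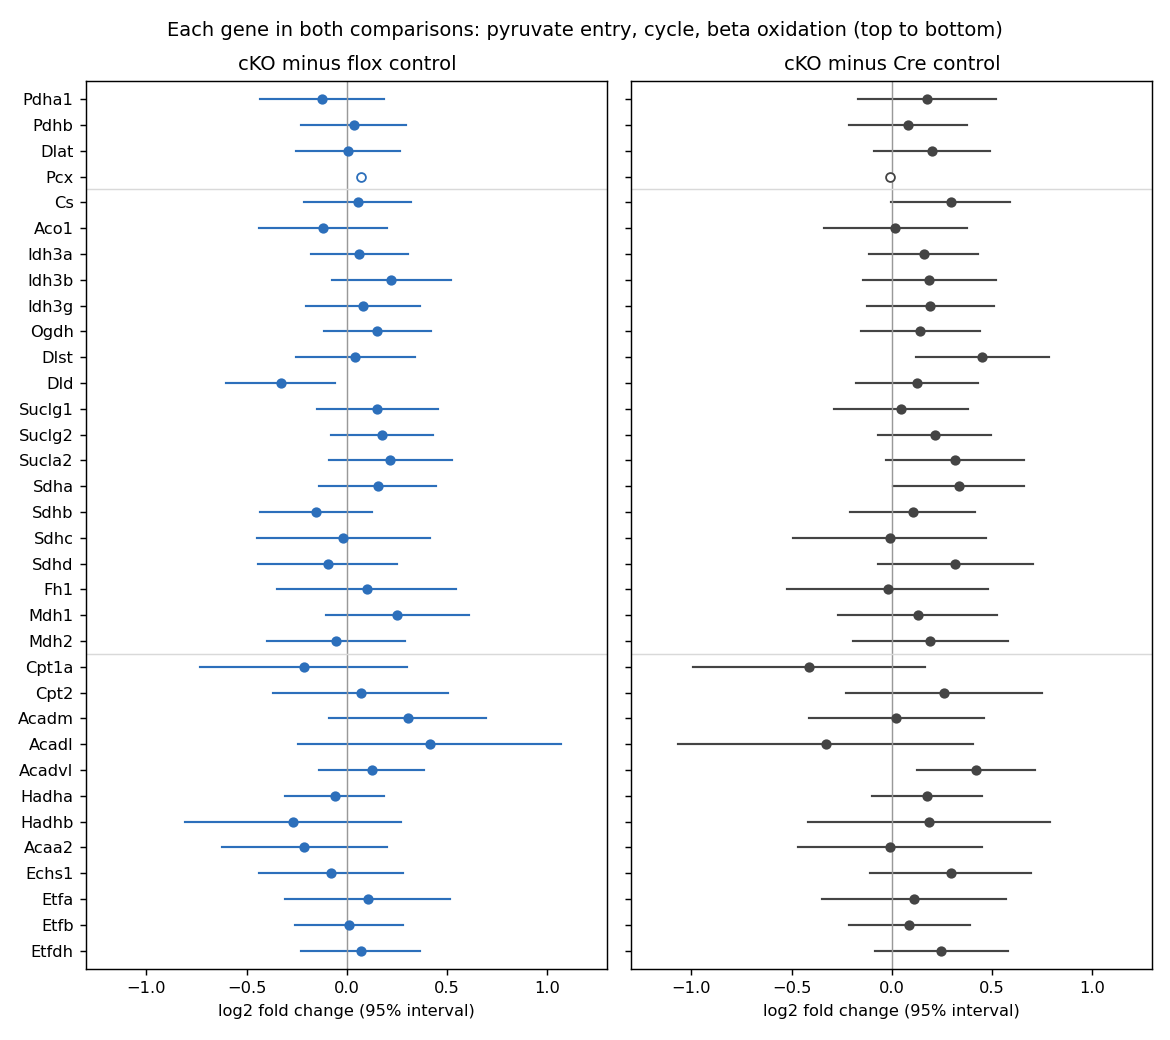
Log2 fold change (points) with its 95% interval (lines) for each gene in the cKO minus flox control (left) and the cKO minus Cre control (right); the open circle is the difference of means of Pcx, which was below the filter. Points scatter around 0 on the left, with 21 of 33 tested genes above it, and lie mostly above 0 on the right, with 28 of 33.

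Members whose groups did not overlap were counted in each comparison. Against the Cre control 14 of 33 members had all cKO arrays above, where 18.5% of all probe sets did, and Cpt1a alone had them below, where 16% did. Idh3a, among these 14, was close to the filter. Against the flox control Sucla2 and Suclg2 lay above, where 5.93% of all probe sets did. In Cre control relative to flox control pools 9 of 33 members lay below, where 17.4% of all probe sets did, and 0 above, where 15.3% did. At an unadjusted p under 0.05, limma gave 3 members against the Cre control, Dlst, Sdha and Acadvl, or 9.09% where all probe sets had 13.5%. Between the controls it gave 5, Dld, Dlst, Sdhd and Acadvl lower and Acadl higher in the Cre control, or 15.2% where all probe sets had 14.7% (7.86% lower and 6.85% higher). By the count at an unadjusted p under 0.05 the members were near or under the background in each comparison. By the count of groups that did not overlap, the share of members above the Cre control was over the background (14 of 33, where all probe sets had 18.5%). So was the share below in Cre control relative to flox control pools (9 of 33, where all probe sets had 17.4%). In both of these comparisons the share in the opposite direction was under the background. This background includes dimmer probe sets, and groups that did not overlap were not counted among the brighter ones alone. Of the 7274 probe sets that pass the filter at the 75th percentile, 3011 were below 0 against the Cre control. In Cre control relative to flox control pools 4184 of them were below 0, so brighter probe sets as a whole leaned the same ways.

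**Figure D4:**
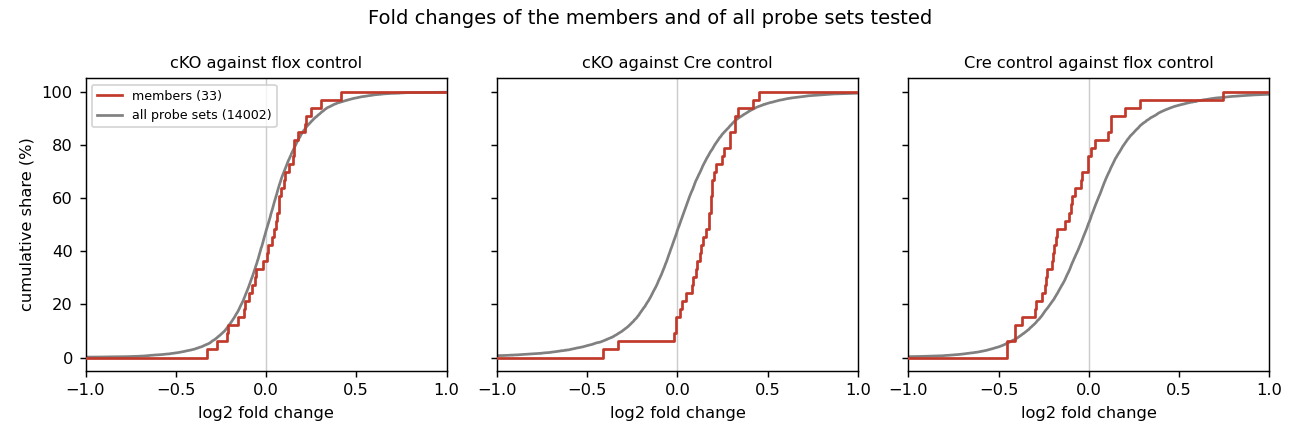
Cumulative share of log2 fold changes for the 33 tested members (red steps) and for all 14002 probe sets tested (grey) in 3 comparisons that share arrays. The members follow all probe sets in the cKO against the flox control (medians 0.05 and 0.01), lie to the right of them against the Cre control (0.17 and 0.01) and to the left of them in Cre control relative to flox control pools (-0.13 and -0.0047).

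Genes around these pathways were read from 7 further lists holding 105 genes, of which 77 were tested. None passed in any of the 4 comparisons. In limma the smallest adjusted p was 0.389 with both controls as the baseline, 0.472 with the flox control, 0.196 with the Cre control, and 0.109 for the controls themselves. Their median against both controls was 0.03, with 43 of 77 above 0, and against the Cre control 0.05, with 45 of 77. At an unadjusted p under 0.05 limma gave 4 of them against both controls, or 5.19% where all probe sets had 9.52%.

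Among regulators of pyruvate use, 3 of 9 tested genes were above 0 against both controls. Pdk3, a kinase that switches the pyruvate dehydrogenase complex off, averaged 8.98 ± 0.65 in the cKO (SD, n = 3), 9.65 ± 0.08 in the Cre control (SD, n = 2) and 9.42 ± 0.45 in the flox control (SD, n = 3), a difference of -0.56 (SE 0.28, adjusted p = 0.58). The pyruvate carrier subunit Mpc1 was at -0.21 (SE 0.14). Of enzymes next to the cycle 5 of 13 were above 0, the nearest to a change being Sdhaf1, an assembly factor of succinate dehydrogenase (-0.19, SE 0.12), and glutamate dehydrogenase Glud1 (0.19, SE 0.16). Acod1, which makes itaconate and was looked up for that role, was at -0.01 (SE 0.09) with arrays between 13.77 and 13.88, near the highest value of the table (14.17), where a difference may not be seen.

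Of 13 tested genes of fatty acid uptake and activation 10 were above 0. Acsl5, which couples fatty acids to coenzyme A, averaged 9.08 ± 0.33 in the cKO (SD, n = 3), 9.51 ± 0.12 in the Cre control (SD, n = 2) and 9.55 ± 0.05 in the flox control (SD, n = 3). All 3 cKO arrays were below the controls (-0.45, SE 0.15, unadjusted p = 0.012, adjusted p = 0.397). Slc27a4, a fatty acid transport protein, averaged 10.08 ± 0.55 in the cKO (SD, n = 3), 8.97 ± 0.14 in the Cre control (SD, n = 2) and 10.13 ± 0.40 in the flox control (SD, n = 3). Its mean was lowest in the Cre control, with 1.12 in the cKO against the Cre control (adjusted p = 0.196) and -0.05 against the flox control.

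The other lists held smaller differences. In other mitochondrial beta oxidation 7 of 14 tested genes were above 0, led by Hadh (0.16, SE 0.15) and Acad8 (-0.16, SE 0.14). In the peroxisomal pathway 4 of 8 were, led by the acyl-CoA oxidase Acox3 (0.16, SE 0.12) and the thiolase Acaa1a (-0.14, SE 0.12). Of 8 tested regulators 6 were above 0, but Esrra, a nuclear receptor that drives oxidative genes, was at -0.27 (SE 0.12, unadjusted p = 0.0447, adjusted p = 0.518) and Hif1a at 0.21 (SE 0.14). Of 12 genes of mitochondrial import, channels and chaperones 8 were above 0 (median 0.15), with the chaperone Hspa9 at 0.50 (SE 0.16, adjusted p = 0.389). The import receptor Tomm20 was at 0.33 (SE 0.11, adjusted p = 0.422), with its cKO arrays above all controls.

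Upstream sequence of the members was searched for sites of factors known to drive mitochondrial genes, in the 250 bases before each start and on both strands. RefSeq windows (GRCm38.p6) were matched for 31 of the 34 genes, 37 windows in all. The site of nuclear respiratory factor 1, searched as GCGCA, any base, then GCGC, was in 13.5% of these windows and in 3.74% of all windows, and the genes that held it were Sdha, Sdhd, Sucla2, Etfb and Etfdh. The GABP site, searched as CCGGAAGNG, was in 5.41% and 2.95%, the oestrogen-related receptor half-site TNAAGGTCA in 0% and 1.14%, and the direct repeat bound by PPAR receptors, searched as AGGTCA, any base, then AGGTCA, in 0% and 0.0335%. The GC box was in 54.1% of the windows of members. The stretches of Sdha and Sucla2, whose cKO arrays were all above the Cre control, are printed with the first of these sites in capitals, Sdha up to the neighbouring gene Ccdc127.
Sdha, chr13:74350241-74350316, minus strand: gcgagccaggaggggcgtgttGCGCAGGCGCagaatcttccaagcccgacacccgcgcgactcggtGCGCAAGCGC
Sucla2, chr14:73552536-73552785, plus strand: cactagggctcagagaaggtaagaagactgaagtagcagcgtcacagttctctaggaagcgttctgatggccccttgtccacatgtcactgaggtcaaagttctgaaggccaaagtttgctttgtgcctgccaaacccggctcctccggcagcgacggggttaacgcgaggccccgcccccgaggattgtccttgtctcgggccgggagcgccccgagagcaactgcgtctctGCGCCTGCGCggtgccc
The Sdha stretch of 76 bases held 2 matches and the Sucla2 stretch of 250 bases held 1. Of the 5 genes with this site Sdha, Sucla2 and Etfb had all cKO arrays above the Cre control, while Sdhd and Etfdh overlapped it. All cKO arrays were above the Cre control in 14 of the 33 tested members and in 18.5% of all probe sets. A link between the site and these levels was not tested.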

How the data were processed

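The authors deposited log2 probe set intensities of 8 Affymetrix Mouse Gene 2.0 ST arrays, made by background subtraction and normalization with Robust Multiarray Analysis in Expression Console, per the labels' design text. The sources used here name neither software version nor genome build. Per the labels' protocols 100 ng of RNA with an integrity number of at least 7 was used. Groups follow titles and genotype labels, which the source field contradicts. The members and gene lists were chosen with earlier results of these data known.

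Of 34472 probe sets 23521 had 1 gene symbol, 1814 several and 9137 none. The 14002 above the median of all values (5.45) on at least 2 arrays were tested with limma 3.58.1 in R 4.3.3, 3 groups in 1 fit, two-sided, Benjamini-Hochberg over all probe sets, threshold 0.05. The cKO was set against the mean of both control group means, against each control, and the controls against each other. SE and intervals (95%) come from this fit. On simulated data a log2 change of 1 in 200 of 14002 probe sets was recovered in 67.7% for the comparison of cKO with Cre control, 76.7% with flox control and 82.3% with the controls joined. In the data 10, 6 and 1 probe sets passed in these comparisons. With fewer changed probe sets the adjusted threshold is harder to reach, so these shares overstate the recovery of a single changed member. The members differed by less than a log2 change of 1, and the recovery of smaller or fewer changes was not simulated.

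Array values were given for members with an unadjusted p under 0.05 in any comparison, with cKO arrays beyond all controls, or with the 2 largest fold changes of each role. Of each further list the 2 genes with the smallest p were named. Hadha, Hadhb and Acod1 were added after their values were seen. Alternatives were other filters, scalings, variance models, array weights, fits of the compared groups, the mean of a gene's probe sets, and omission of arrays.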

Additional observations from a re-analysis of the deposited data

How the results depend on the processing

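No paired analysis was possible because the labels give no replicate numbers that tie the pools of the groups together. None of the members passed against any control in any setting (limma, at most 5 at an unadjusted p under 0.05). With array weights 1 member passed in Cre control relative to flox control pools, Dld (-0.50, adjusted p = 0.0376). The count over all probe sets was 1 against both controls (13 with array weights, 0 to 31 without 1 array, 0 without cKO replicate 1 and flox control replicate 1, the pools set apart by sex-linked transcripts), 6 against the flox control (12, 0 to 10 and 0, and 0 when only the compared groups were fitted), 10 against the Cre control (145, 0 to 68 and 4, and 5 when only the compared groups were fitted or with no filter) and 68 between the controls (819, 0 to 235 and 17, and 131 when only the compared groups were fitted). Settings with 0 had 697 to 1493 probe sets at an unadjusted p under 0.05 in limma. Among role medians, that of pyruvate entry between the controls moved from -0.20 to -0.12 with no filter, which adds Pcx, and that of the cycle from -0.11 to -0.24 with the filter at the 75th percentile, which tests fewer genes. Among the genes described array by array the following signs turned, none of them past the threshold, and the cause was not tested. Other members turned too, since 26 to 31 of 33 were above 0 against the Cre control over the settings that tested all 33. Against the flox control they were Pdhb (-0.00977 with array weights, -0.053 to 0.087 without 1 array), Dlat (-0.015 with quantile scaling, -0.012 with array weights, -0.13 without the sex-distinct pools, -0.070 to 0.048 without 1 array), Dlst (-0.077 to 0.11) and Sdhd (0.074 without the sex-distinct pools, -0.24 to 0.0056). Between the controls they were Pdhb (-0.13 to 0.0077), Suclg2 (0.011 without the sex-distinct pools, -0.12 to 0.011), Sucla2 (-0.29 to 0.086) and Cpt1a (-0.070 to 0.35). Against both controls they were Sdhd (-0.030 to 0.21 without 1 array) and Acadl (-0.00175 with quantile scaling, -0.14 to 0.23 without 1 array). Arf6 stayed lower in the cKO in every setting, but its adjusted p was up to 0.182 against both controls (without Cre control replicate 2), 0.194 against the flox control (without flox control replicate 2) and 0.462 against the Cre control (without Cre control replicate 1).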
